A study of Mus musculus with 20 samples.

Results

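The chromatin of 10 genes of the bone morphogenetic protein (BMP) pathway was described in Nkx2.1-lineage cells of the mouse neocortex. The genes were the ligands Bmp2, Bmp4 and Bmp7, the receptors Bmpr1a, Bmpr1b and Bmpr2, the signal-carrying Smads Smad1 and Smad5, and the inhibitory Smads Smad6 and Smad7. They were chosen by name, out of 21728 protein-coding genes. Their members were, first, the 28 of 32120 deposited ATAC-seq consensus regions annotated to one of these symbols and, second, every peak of the histone and Tcf4 lists in the gene body with 20 kb on each side, called the window below. Smad6 had no consensus region, and the other genes had between 1 (Bmp4) and 6 (Bmpr1b). Of the 28 regions, 24 lay in the window of their gene and 4 lay farther out, downstream of Smad5 and Smad7 and upstream of Smad1.

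The assays, ATAC-seq and Cut&Tag, used GFP-positive cells that had been sorted out of the neocortex of mouse pups aged 7 or 8 postnatal days. WT mice carried Nkx2.1-Cre and the Ai3 Cre reporter, and Tcf4 cKO mice carried the same Cre and reporter on a Tcf4 f/f background, so that the transcription factor Tcf4 was removed where the Nkx2.1 promoter had driven Cre. Each genotype had 2 libraries of 50000 cells for ATAC-seq and for each of H3K4me1, H3K27ac and H3K27me3. Tcf4 was mapped with an anti-Flag antibody in 2 libraries, each of 200000 nuclei of the Tcf4-tag line, in which Cre switches on a Flag/HA tag at the end of the endogenous protein. The labels do not say which libraries came from separate animals, so that the tests measure the spread between libraries, which may be technical.

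BMP ligands bind complexes of type I receptors (Bmpr1a, Bmpr1b) and a type II receptor (Bmpr2). The active receptor phosphorylates Smad1 and Smad5, which enter the nucleus with Smad4 and switch on targets such as the Id genes. Smad6 and Smad7 are themselves induced by the signal and hold it back. In the postnatal forebrain the pathway is known for favouring astrocytes over oligodendrocytes. ATAC-seq marks open chromatin, H3K4me1 marks enhancers and the borders of promoters, H3K27ac marks active enhancers and promoters, and H3K27me3 marks chromatin under polycomb repression.

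The lists held between 15085 (H3K27me3) and 72790 (H3K4me1) peaks per library, and the number of reads behind them is unknown. Values below are MACS2 fold enrichments over the local background, with 0 for a library without a peak, which means only that the signal did not pass the caller's threshold. The sorted cells are a mixture. Of 5 oligodendrocyte-lineage, 5 astrocyte and 6 interneuron markers, 1 (Olig1), 2 (Slc1a3 and Aldoc) and 0 had H3K27ac at a promoter in both WT libraries, and 1 (Pdgfra), 2 (the same genes) and 0 in both Tcf4 cKO libraries, and the microglial, endothelial and projection neuron markers had 0 of 4 each in both genotypes. An ATAC peak lay in both libraries at the promoters of 5 of the 6 interneuron markers in WT and of 4 in Tcf4 cKO. For the oligodendrocyte-lineage markers it was 4 of 5 in each genotype, and for the astrocyte markers 2 of 5 in WT and 3 in Tcf4 cKO. Microglial markers had 3 of 4 in WT and 2 in Tcf4 cKO, and endothelial and projection neuron markers 2 of 4 each in both genotypes. A change in the share of a cell type and a change within cells cannot be told apart in these libraries. The peak lists hold no reads over the deleted part of Tcf4 and give no check of the deletion.

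The results turn on 5 stretches of sequence, printed here 5′ to 3′ from the GRCm38 genome with every E-box core (CANNTG, the hexamer that basic helix-loop-helix factors such as Tcf4 bind) in capitals. The first pair are 151 bases centred on the summit of the strongest Tcf4 peak upstream of Bmp4 (chr14:46409105-46409255, plus strand) and of Bmp7 (chr2:172958408-172958558, plus strand). The next is centred on the WT ATAC summit upstream of Bmp2 (chr2:133533819-133533969, plus strand), a region with less signal in Tcf4 cKO. The last pair were taken at the regions of Bmpr1b that had ATAC peaks in Tcf4 cKO and none in WT. The promoter stretch is the 250 bases before the start of the transcript Bmpr1b-201 (chr3:141982265-141982514, minus strand, as in the RefSeq promoter of that start). It lies only in part in its region (chr3:141981664-141982344) and reaches beyond it upstream. The other is 151 bases at the intronic summit (chr3:141933116-141933266, plus strand).
Bmp4 upstream: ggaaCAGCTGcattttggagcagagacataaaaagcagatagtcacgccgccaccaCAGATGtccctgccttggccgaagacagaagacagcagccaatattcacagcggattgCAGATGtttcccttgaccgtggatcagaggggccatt
Bmp7 upstream: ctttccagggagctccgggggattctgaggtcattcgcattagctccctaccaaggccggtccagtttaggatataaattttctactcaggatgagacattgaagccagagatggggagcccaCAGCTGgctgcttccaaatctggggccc
Bmp2 upstream: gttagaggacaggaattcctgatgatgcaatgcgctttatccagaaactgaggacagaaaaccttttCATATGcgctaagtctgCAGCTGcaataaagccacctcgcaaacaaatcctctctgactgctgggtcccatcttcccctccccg
Bmpr1b-201 promoter: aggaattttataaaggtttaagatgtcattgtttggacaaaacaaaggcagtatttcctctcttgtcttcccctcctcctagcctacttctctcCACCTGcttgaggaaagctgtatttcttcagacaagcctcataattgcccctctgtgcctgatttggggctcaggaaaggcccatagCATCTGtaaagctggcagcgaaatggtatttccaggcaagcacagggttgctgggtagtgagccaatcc
Bmpr1b intron: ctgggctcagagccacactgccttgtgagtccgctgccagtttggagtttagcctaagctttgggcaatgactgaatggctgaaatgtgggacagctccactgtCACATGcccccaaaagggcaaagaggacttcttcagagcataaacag

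The sequences differed in their E-boxes. Upstream of Bmp4 there were 3 cores, of which 1 was CAGCTG, and upstream of Bmp7 there was 1, a CAGCTG. The Bmp2 stretch held 2 cores, 1 of them CAGCTG. Before the start of Bmpr1b-201 there were 2 cores, of which 1 was CACCTG, the other strand of CAGGTG. That CACCTG lay outside the ATAC region, in the part of the stretch upstream of it. The intronic Bmpr1b stretch held 1 core, with neither of these spellings. Searched on both strands, CANNTG (which includes CAGCTG and CAGGTG) was found in 49.2% of all 151-base windows at the centres of consensus regions and in 66.2% of the 250 bases before all 32851 RefSeq starts, and CAGCTG in 12.9% and 13.0%, so that a core by itself sets none of these stretches apart.

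At their promoters, defined as 1000 bp on each side of any start of a protein-coding transcript, most of the BMP genes were open in both genotypes. An ATAC peak was present in both WT libraries at 9 of the 10 genes, where the share of all protein-coding genes was 66.3%, and in both Tcf4 cKO libraries at the same 9 genes (65.5% of all). Bmp4 was the exception, with no ATAC, H3K4me1 or H3K27ac peak within 1000 bp of a start in any library.

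H3K27ac split the genes. It was found in both WT libraries at 7 of 10 promoters (53.4% of all genes), those of Bmp2, the 3 receptors, Smad1, Smad5 and Smad7, and in both Tcf4 cKO libraries at 5 of 10 (50.4% of all). The ligand gene Bmp2 was 1 of the genes that made the difference. Its promoter had enrichments of 4.09 and 4.48 in WT and no H3K27ac peak in either Tcf4 cKO library. Among all genes, 1.29% had the mark in both WT libraries while lacking it in the 2 Tcf4 cKO libraries. The other was Bmpr1b, whose promoter had 5.53 and 5.58 in WT and 5.39 in Tcf4 cKO replicate 1 and no peak in replicate 2, so that 1 of the Tcf4 cKO libraries lay beside the WT libraries. Bmpr2 had 4.36 and 4.02 against 4.87 and 3.85, and Smad1 had 4.41 and 4.34 against 4.28 and 3.73. The genotypes overlapped at Bmpr2, and at Smad1 both Tcf4 cKO libraries lay below both WT libraries, by less than the spread between the Tcf4 cKO libraries. Smad7 counted in both genotypes, but not through the same start. At the start with the mark in WT it had 2.70 and 2.89 in WT and 2.47 and 0 in Tcf4 cKO. The peak of Tcf4 cKO replicate 2, at 2.66, lay at another start that had no peak in WT. Bmp7 had an H3K27ac peak in 1 library of each genotype (2.51 and 2.55), and Smad6 and Bmp4 had none in any.

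H3K27me3 lay at the promoters of Bmp2, Bmp4, Bmpr1b and Smad6 in all 4 libraries, which is 4 of 10 genes in WT and 4 of 10 in Tcf4 cKO, where the shares of all genes were 16.5% and 16.8%. Bmp4 had 1.83 and 1.75 in WT and 1.83 and 1.74 in Tcf4 cKO, and Smad6 had 1.88 and 1.87 in WT and 1.93 and 1.87 in Tcf4 cKO. Bmp2 had 2.34 and 2.49 in WT and 2.54 and 2.64 in Tcf4 cKO, both Tcf4 cKO libraries lying above both WT libraries. Bmpr1b lay the other way, with 2.63 and 2.92 in WT and 2.54 and 2.60 in Tcf4 cKO. The 2.92 was at the start of Bmpr1b-201, where no other library had a peak. The share of all promoters that separate in either direction is not given here. With 2 libraries against 2, no exact permutation test can go below 0.333. In 3 of these genes, Bmp2, Bmpr1b and Smad6, the promoter held both an ATAC peak and H3K27me3 in both WT libraries, as in 14.9% of all genes. Bmpr1a, a type I receptor like Bmpr1b, and Smad7 had no H3K27me3 peak at a promoter in any library.

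H3K4me1 was present in both WT libraries at 3 promoters (30.7% of all genes), those of Bmpr1b, Bmpr2 and Smad7, and in both Tcf4 cKO libraries at 3 (46.2% of all), those of Bmp2, Bmpr1b and Bmpr2. Smad7 had 4.54 and 4.18 in WT and 3.06 and 0 in Tcf4 cKO. Bmp2 had 0 and 2.61 in WT and 3.38 and 3.59 in Tcf4 cKO. The mark thus lay lower in both Tcf4 cKO libraries at Smad7 and higher at Bmp2, in a data set where the peaks of H3K4me1 covered 30.0 Mb on average in WT and 40.2 Mb in Tcf4 cKO.

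**Figure D1:**
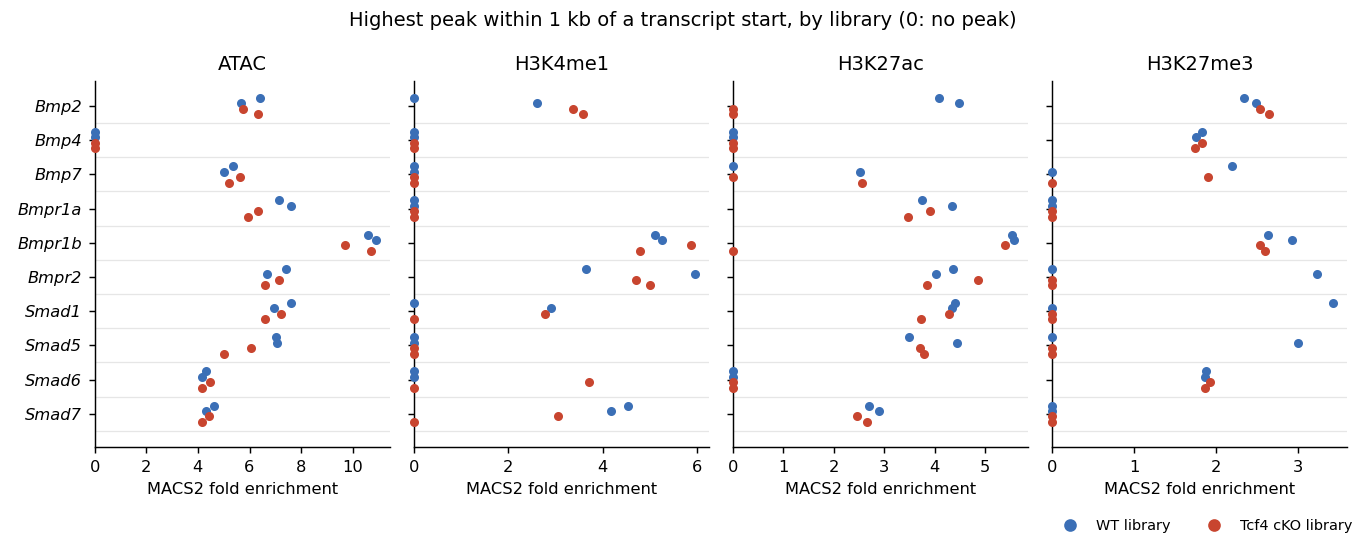
Highest MACS2 fold enrichment within 1000 bp of a transcript start for the 10 BMP genes in each of the 4 assays, with 1 point per library (blue for WT, red for Tcf4 cKO) and 0 for no peak. The H3K27ac points of Bmp2 stand at 4.09 and 4.48 in WT and at 0 in both Tcf4 cKO libraries, and the H3K27me3 points of Bmp4 and Smad6 lie together.

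Whether Tcf4 loss changed accessibility was tested with limma on the 32120 consensus regions, all of which had a peak in at least 2 of the 4 libraries. At an adjusted p below 0.05, 1 of the 28 regions of the BMP genes was higher in Tcf4 cKO and 0 were lower, against 1.46% of all regions called in either direction (of these 468 regions, 420 had no peak in 1 genotype). At an unadjusted p below 0.05 there were 4 higher and 3 lower, where 5.87% and 6.55% of all regions were. Of the 28 regions, 24 had a peak in all 4 libraries, and the median difference over the 28 was 0.02 on the log2(fold enrichment + 1) scale, where that of all regions was 0.01. At the other promoters the differences on this scale ran from -0.22 (Smad5) to 0.14 (Bmp7).

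The called region was at Bmpr1b. This type I receptor gene spans 332.3 kb of chromosome 3 on the minus strand and has several starts. The region (chr3:141981664-141982344) covers the start and the first exon of the transcript Bmpr1b-201, inside the body of the longer transcripts. It had no ATAC peak in either WT library and enrichments of 7.76 and 6.54 in the Tcf4 cKO libraries. The fitted difference was 2.80 ± 0.36 (SE) on the log2(fold enrichment + 1) scale, with an adjusted p of 0.0366 (limma). Its size depends on the 0 given to a library without a peak and is not a fold. The authors' mean log2 normalized reads, which do not need a peak, were 3.85 in WT and 5.42 in Tcf4 cKO. The call was lost without either WT library, where the difference was 3.07 or 3.03 and no region of the genome was called, and with the replicate number as a block, where it was 2.80 and again no region of the genome was called. Without a Tcf4 cKO library the region had too few peaks to be tested.

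H3K4me1 already marked that start in WT. All 4 libraries had a peak over the region, with 5.12 and 4.04 in WT and 5.87 and 4.27 in Tcf4 cKO, and the genotypes overlapped. H3K27ac had a peak of 4.93 in Tcf4 cKO replicate 1 and none in the other 3 libraries. H3K27me3 had a peak of 2.92 there in WT replicate 2 only. No Tcf4-tag peak lay on the region in either library.

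A further region of Bmpr1b followed the same pattern. It lay in an intron (chr3:141932998-141933699), 1.48 kb before the start of the shorter transcript Bmpr1b-204, and had no peak in WT and enrichments of 5.11 and 5.09 in Tcf4 cKO. Its difference of 2.40 ± 0.42 (SE) had an adjusted p of 0.0807 (limma) and did not pass. The authors' mean log2 reads were 4.40 in WT and 6.50 in Tcf4 cKO, the widest gap among the 28 regions. These were the 2 regions of the BMP genes that had a peak in each Tcf4 cKO library and none in WT, a pattern of 0.560% of all regions. The reverse pattern was found at 0 of the 28, and at 1.02% of all. The first promoter of Bmpr1b, at the 5′ end of the gene, had 10.6 and 10.9 in WT and 9.72 and 10.7 in Tcf4 cKO, and did not separate.

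**Figure D2:**
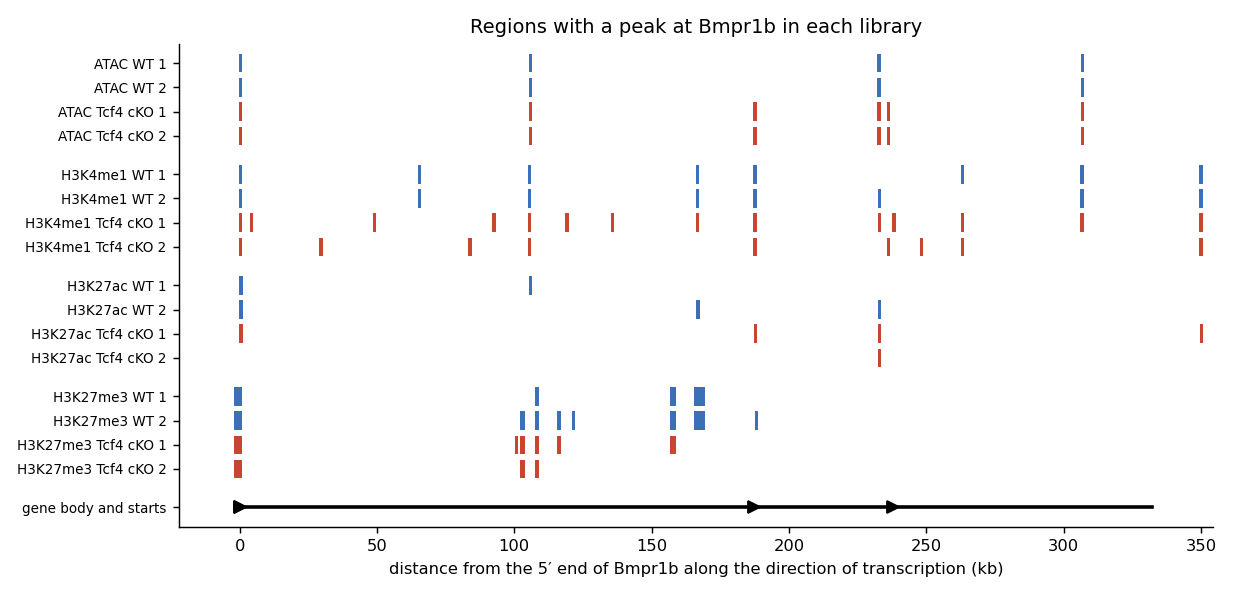
Regions of Bmpr1b that held a peak in each library, by distance from the 5′ end of the gene along the direction of transcription (kb). Rows are libraries (blue for WT, red for Tcf4 cKO), ATAC rows show consensus regions and other rows merged peaks, regions narrower than the line width are widened for visibility, and arrowheads mark transcript starts. ATAC marks appear at the start of Bmpr1b-201 and before that of Bmpr1b-204 in the red rows alone, where H3K4me1 marks the start of Bmpr1b-201 in all 4 libraries.

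In the other direction, the ligand Bmp2 had the region with the lowest difference of the authors' means. It lay 17.9 kb upstream of the start (chr2:133533486-133534245). Its enrichments were 7.69 and 8.80 in WT and 0 and 4.37 in Tcf4 cKO, so that both Tcf4 cKO libraries lay below both WT libraries. The difference of -1.67 ± 0.60 (SE) had an adjusted p of 0.373 (limma) and did not pass, and the authors' means were 5.73 in WT and 4.63 in Tcf4 cKO. H3K4me1 at the region was 4.27 and 4.36 in WT and 0 and 3.92 in Tcf4 cKO, with the missing peaks of both assays in the replicates numbered 1. H3K27ac went the other way, with a peak of 3.36 in Tcf4 cKO replicate 1 and none in Tcf4 cKO replicate 2 or in WT. The promoter of Bmp2 had 6.39 and 5.68 in WT and 5.74 and 6.33 in Tcf4 cKO.

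Of the 28 regions, both Tcf4 cKO libraries lay below both WT libraries at 10 (34.7% of all regions) and above both at 4 (12.9% of all), shares near those of the genome. The 10 were 2 each at Bmpr1a, Bmpr1b and Smad5 and 1 each at Bmp2, Bmp7, Smad1 and Smad7, and the 4 were 3 at Bmpr1b and 1 at Bmpr2. The intronic regions of Bmpr1a and Bmpr2 among them are given as examples. In Bmpr1a (chr14:34439272-34440158) the values were 6.25 and 7.20 in WT and 3.33 and 3.91 in Tcf4 cKO, with a difference of -0.64 ± 0.16 (SE) and an adjusted p of 0.223. In Bmpr2 (chr1:59788834-59789555) they were 0 and 4.0 in WT and 6.06 and 5.56 in Tcf4 cKO, with a difference of 1.46 ± 0.54 (SE) and an adjusted p of 0.378. Neither passed the test (limma). Around exon 3 of Smad1, a coding exon, (chr8:79355736-79356537) the values were 8.81 and 9.46 against 6.78 and 7.12, and the adjusted p was 0.402.

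By the authors' means per genotype, which come without a spread, 5 of the 28 regions were lower in Tcf4 cKO by over 0.5 on the log2 scale (12.6% of all regions) and 4 were higher (8.38% of all). The 5 lower ones were upstream of Bmp2 and Bmp4, in Bmpr1a and Smad1, and downstream of Smad5. Of the 4 higher ones, 3 belonged to Bmpr1b and the other to Bmpr2. All 6 regions of Bmpr1b had a higher mean in Tcf4 cKO, from 0.29 to 2.10, while every region of the 3 ligand genes had a lower one, from -0.06 to -1.10. Over the 28 regions 19 were lower and 9 higher, where 63.5% of all regions were lower, with a median of -0.15, where the median of all regions was -0.10.

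The peak enrichments and the authors' means parted at some regions. In an intron of Bmpr1b (chr3:141936407-141937233) the enrichments were 5.90 and 8.49 in WT and 5.18 and 5.33 in Tcf4 cKO, a difference of -0.29, while the authors' mean was higher in Tcf4 cKO by 0.45. A further Bmpr1b intron (chr3:142063287-142064247) had a difference of -0.06 in enrichment and 0.52 in the authors' means. The region upstream of Bmp4 parted the other way. Its peak enrichments were 10.6 and 10.1 in WT and 10.4 and 11.2 in Tcf4 cKO, a difference of 0.15 ± 0.10 (SE; adjusted p = 0.568, limma), while the authors' mean log2 reads were 8.63 in WT and 7.57 in Tcf4 cKO. The first value is the height at the summit over the local background, and the second counts reads over the region.

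**Figure D3:**
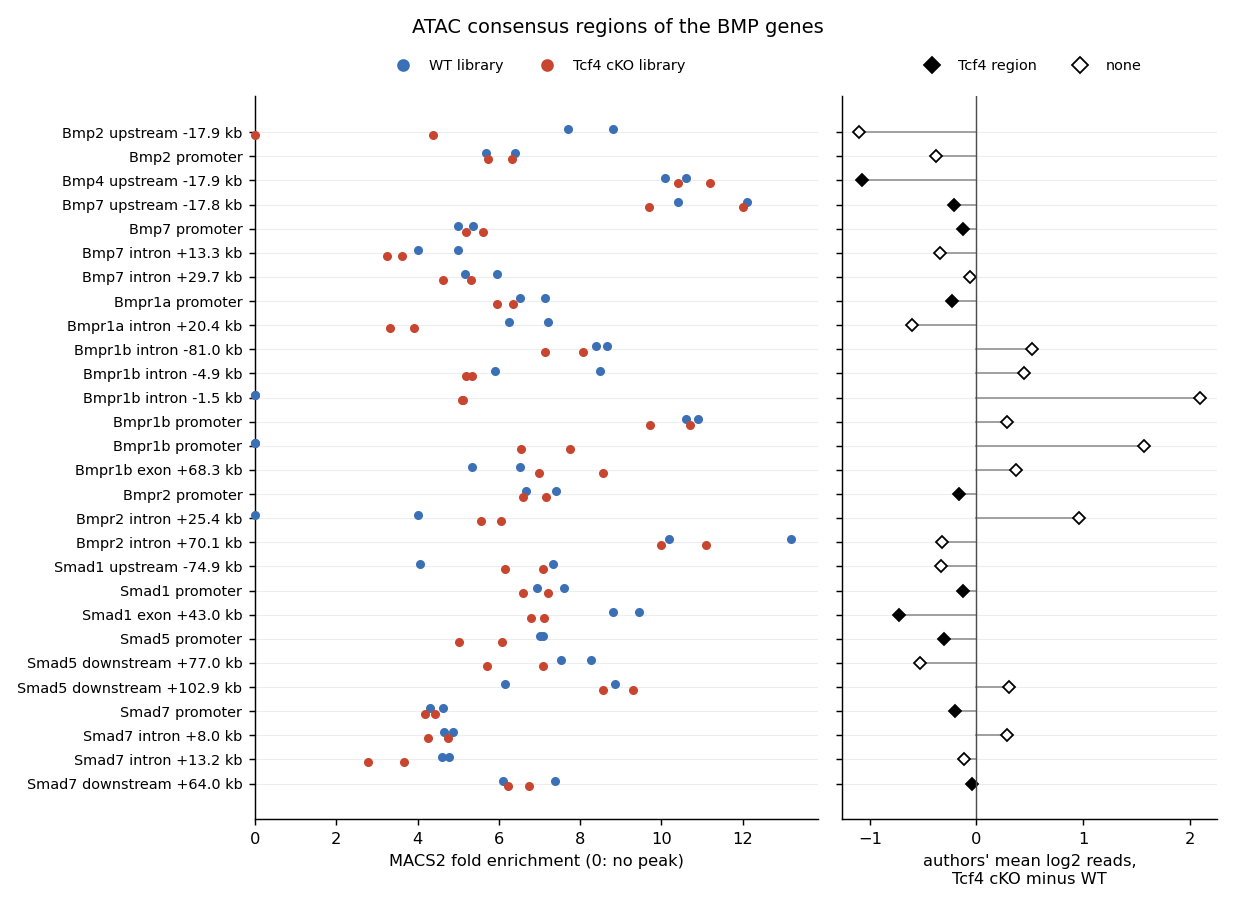
The 28 ATAC consensus regions of the BMP genes, named by gene, place and distance from the nearest start. Left, MACS2 fold enrichment with 1 point per library (blue for WT, red for Tcf4 cKO, 0 for no peak), and right, the difference of the authors' mean log2 reads (Tcf4 cKO minus WT), filled where a Tcf4 region of both Tcf4-tag libraries overlaps. The regions at the start of Bmpr1b-201 and before that of Bmpr1b-204 have both WT points at 0, and no filled marker lies to the right of 0.

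Tcf4 itself was mapped in the Tcf4-tag line. Peaks of both libraries formed 14087 reproducible Tcf4 regions in the genome, of which 9 lay in the windows of 7 of the 10 genes, where 59.9% of all protein-coding gene windows held at least 1. The density was 0.101 per 10 kb at the median of the 10 windows and 0.104 over all windows. Bmp2, Bmpr1b and Smad6 had none. Bmp2 and Bmpr1b had 1 and 3 peaks in Tcf4-tag replicate 1 alone, and Smad6 had no peak in either.

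The strongest site was upstream of Bmp4, a ligand gene with no ATAC peak at its own start. Its peaks (chr14:46408668-46409641) had enrichments of 8.64 and 8.94. The ATAC region under it had H3K4me1 in all 4 libraries, at 3.01 and 3.80 in WT and 3.34 and 3.99 in Tcf4 cKO, and H3K27ac in 1 library of each genotype. The site upstream of Bmp7 (chr2:172958199-172958990) had 7.60 and 5.56. There, all 4 libraries had H3K4me1, from 3.68 to 5.03, and all 4 had H3K27ac, at 5.07 and 4.82 in WT and 4.92 and 4.49 in Tcf4 cKO. Neither mark separated the genotypes at either site. The ATAC regions upstream of the 3 ligand genes lay at like distances, 17.9 kb for Bmp2, 17.9 kb for Bmp4 and 17.8 kb for Bmp7, but only those of Bmp4 and Bmp7 held Tcf4.

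The other sites were promoters, those of Bmp7, Bmpr1a, Bmpr2, Smad1, Smad5 and Smad7, with enrichments from 3.56 to 6.66, and the exonic region of Smad1, with 4.88 and 6.97. An E-box core lay within 75 bp of the summit at 5 of the 9 sites (46.5% of all reproducible regions). CAGCTG was found at 2 of the 9 (15.1% of all), the upstream sites of Bmp4 and Bmp7 printed above, and CAGGTG at 1 (11.5% of all), the promoter of Bmp7.

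**Figure D4:**
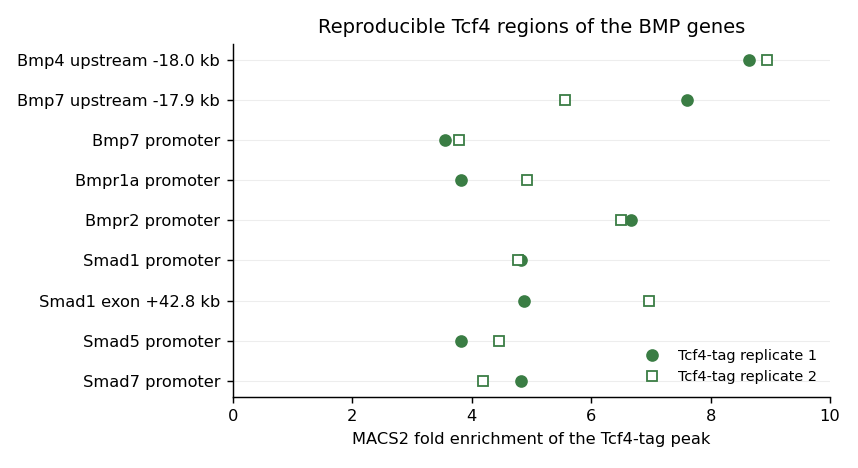
MACS2 fold enrichment of the 9 reproducible Tcf4 regions in the windows of the BMP genes, with filled circles for Tcf4-tag replicate 1 and open squares for replicate 2. The site upstream of Bmp4 stands highest in both libraries, at 8.64 and 8.94, followed in replicate 1 by that upstream of Bmp7 at 7.60.

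Of the 28 ATAC regions, 10 overlapped a reproducible Tcf4 region, including 1 downstream of Smad7 outside its window, where the share of all consensus regions was 36.8%. In all 10 the authors' mean was lower in Tcf4 cKO, with differences from -0.04 to -1.07 and a median of -0.21. The same was true of 81.5% of all regions with Tcf4, whose median was -0.16. Of the 18 without Tcf4, 9 were lower and 9 higher, with a median of 0.12, where 53.0% of all such regions were lower and their median was -0.03. All 9 regions of the BMP genes with a higher mean in Tcf4 cKO were thus without a reproducible Tcf4 region. None of the 10 regions with Tcf4 passed the limma test.

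In the histone marks, no region of the BMP genes passed the limma test for H3K4me1 or H3K27ac, and no region of the genome did. For H3K4me1, 49 of 92 regions had peaks in at least 2 libraries and were tested, with 0 called (0% of all called). At an unadjusted p below 0.05, 1 was higher and 6 lower, and over all 65506 regions tested 6591 were higher and 3854 lower. For H3K27ac, 16 of 35 were tested and 0 called (0% of all), with 1 higher and 2 lower at an unadjusted p below 0.05, against 1415 and 1792 of all 24899.

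The lower H3K27ac regions at that unadjusted level were the promoter of Bmp2 (chr2:133552261-133553506) and an intron of Bmpr2 (chr1:59833506-59834036). Bmp2 had a difference of -2.14 ± 0.58 (SE; adjusted p = 0.254, limma). Bmpr2 had 4.36 and 3.71 in WT and 0 in both Tcf4 cKO libraries, with an adjusted p of 0.254 as well, while the ATAC region at the same place had 10.2 and 13.2 in WT and 10.0 and 11.1 in Tcf4 cKO. These were the 2 regions of the BMP genes that had H3K27ac in each WT library and none in Tcf4 cKO (4.23% of all regions). A region at a second start of Smad7 (chr18:75369980-75370360) had 0 in both WT libraries and 2.44 and 2.66 in Tcf4 cKO, the only one of the 35 with that pattern (2.53% of all).

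For H3K4me1, 4 regions had a peak in both WT libraries alone (2.64% of all) and 5 in both Tcf4 cKO libraries alone (7.51% of all). The former lay at Bmpr1b, Bmpr2, Bmp7 and Smad6, with the highest values in an intron of Bmpr1b (chr3:142103959-142104505), at 4.43 and 5.38 in WT. The latter were 3 at Bmp7 and 1 each at Smad1 and Smad6, with the highest downstream of Smad6 (chr9:63942127-63943364), at 4.63 and 4.0 in Tcf4 cKO. None of these 9 passed the test.

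H3K27me3 had 40 regions at 9 of the genes and none at Bmpr1a. Of the 18 tested, 3 were called, all of them lower in Tcf4 cKO, where 17.1% of all regions tested were called in either direction, so that the share at the BMP genes was that of the genome. The 3 were also those that had a peak in each WT library and none in Tcf4 cKO (4.05% of all regions), and 0 showed the reverse (5.36% of all). In an intron of Bmpr1b (chr3:142000101-142003897) the values in WT were 2.22 and 1.97, downstream of Bmp2 (chr2:133570399-133570847) they were 2.71 and 2.86, and downstream of Smad5 (chr13:56761853-56763232) they were 2.77 and 2.43. The differences were -1.65 ± 0.07, -1.92 ± 0.09 and -1.85 ± 0.09 (SE), and the adjusted p-values 0.00344, 0.00344 and 0.00357 (limma). In each, both Tcf4 cKO libraries were at 0, as 1 genotype was in 2747 of the 2805 regions called in the genome, and none of the 3 calls was left when any 1 library was left out.

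Over the whole window of a gene, the length covered by peaks was compared between libraries. ATAC coverage was lower in both Tcf4 cKO libraries than in both WT libraries at Bmp2 and Bmp7 (25.7% of all gene windows with a peak) and higher at Smad6 (7.39% of all). In Bmp2 the peaks covered 2.83 and 3.47 kb in WT and 1.28 and 1.67 kb in Tcf4 cKO. In Smad6 they covered 1.34 and 3.16 kb in WT and 3.90 and 3.34 kb in Tcf4 cKO, although no consensus region carried its symbol.

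H3K27ac coverage was lower at Bmp2, Bmp7 and Bmpr2 (21.9% of all windows) and higher at Smad7 (9.46% of all). At Bmp2 it was 1.65 and 1.28 kb in WT and 0.920 and 0 kb in Tcf4 cKO, and at Bmp7 1.52 and 1.70 kb against 1.06 and 0.923 kb. Of the BMP genes, Bmp2 and Bmp7 had lower coverage in both assays, and the share of all windows lower in both is not given here. Over whole libraries, ATAC peaks covered 42.3 Mb on average in WT and 39.0 Mb in Tcf4 cKO, and H3K27ac peaks 17.6 and 15.9 Mb. At Smad7 H3K27ac covered 0.882 and 1.16 kb in WT and 1.71 and 1.23 kb in Tcf4 cKO.

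H3K4me1 coverage was higher at 5 of the 10 genes, Bmp4, Bmp7, Bmpr1b, Smad1 and Smad6 (44.6% of all windows), and lower at Smad7 (3.69% of all). Bmp7 had 0.987 and 1.85 kb in WT and 3.44 and 3.06 kb in Tcf4 cKO, and Smad6 had 1.58 and 1.48 kb against 3.51 and 3.05 kb. Set against the length covered in the whole library, a scale chosen after the data were seen, H3K4me1 was higher at 3 of these (Bmp7, Smad1 and Smad6) and lower at 3, Bmpr1a, Bmpr2 and Smad7. On that scale ATAC was also higher at Bmpr1b, and H3K27ac was no longer lower at Bmpr2 and was higher at Bmpr1a. H3K27me3 coverage was lower at 4 genes, Bmp2, Bmp4, Smad1 and Smad5 (14.9% of all windows), and higher at 0 (20.9% of all). At Bmp4, where the mark was widest relative to the gene, it covered 8.46 and 7.54 kb in WT and 7.47 and 7.45 kb in Tcf4 cKO, a gap to the nearest WT library smaller than that between the WT libraries. At Bmpr1b the values overlapped, with 5.61 and 13.2 kb in WT and 5.81 and 2.46 kb in Tcf4 cKO. Set against the covered length of the library, H3K27me3 was lower at Bmp2, Bmpr1b, Smad1 and Smad5, no longer at Bmp4, and higher at Bmp7. For none of the assays is the share of all gene windows on that scale given here, so these counts cannot be set against the genome. The windows of Bmpr1b, Smad5, Bmpr1a and Bmp4 reach into other protein-coding genes (Unc5c for Bmpr1b, and Mmrn2 for Bmpr1a), whose peaks are counted in them.

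**Figure D5:**
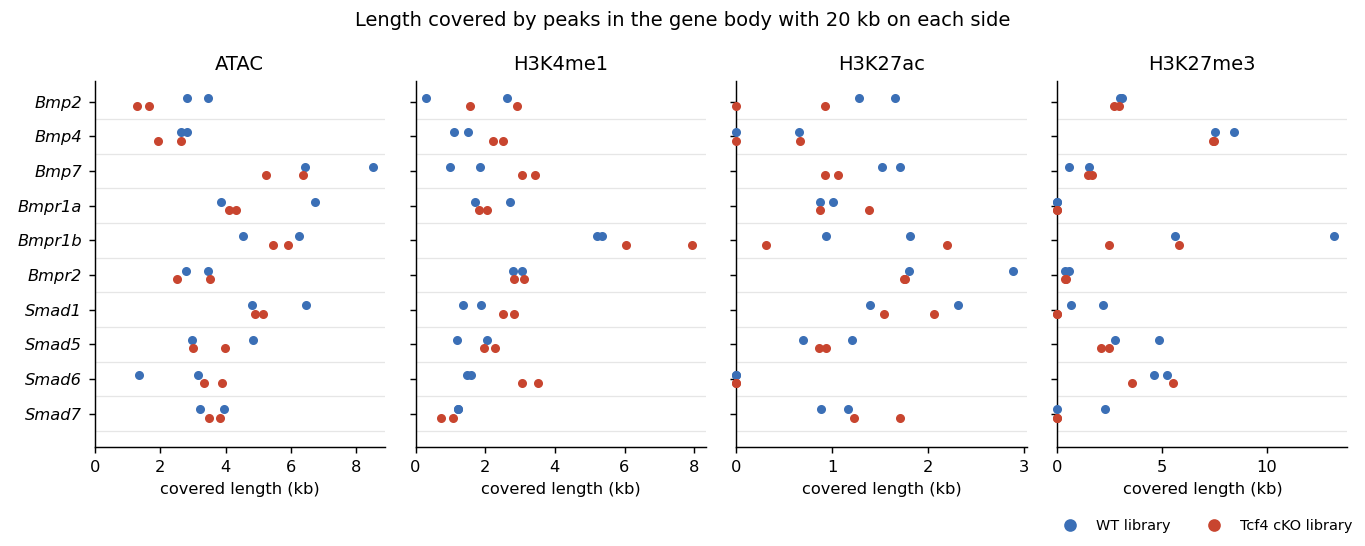
Length covered by peaks (kb) in the window of each BMP gene for the 4 assays, with 1 point per library (blue for WT, red for Tcf4 cKO). For H3K27ac and ATAC, both red points of Bmp2 and Bmp7 lie left of both blue points, and for H3K4me1 those of Bmp7 and Smad6 lie to the right.

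Of the 29 other genes of the pathway that were listed (ligands, receptors, Smads, extracellular antagonists, ubiquitin ligases and targets), 25 had 48 ATAC consensus regions. Of these 0 were called higher and 1 lower (limma), where 1.46% of all regions were called in either direction. The lower region was in an intron of Twsg1, which encodes a secreted BMP-binding protein. It had 5.70 and 6.97 in WT and 0 in both Tcf4 cKO libraries, with an adjusted p of 0.0384, and the authors' means differed by -1.01. H3K27me3 was called at 3 of 46 regions tested, where 17.1% of all regions tested were called. It was higher in Tcf4 cKO at the promoters of Chrd, an extracellular BMP antagonist (0 in both WT libraries, 2.47 and 2.86 in Tcf4 cKO, adjusted p = 0.00523), and of Id1, a transcriptional target (0 in WT, 2.33 and 2.29 in Tcf4 cKO, adjusted p = 0.00344), and lower in an exon of Smurf1, a ubiquitin ligase of the pathway (1.69 in each WT library, 0 in Tcf4 cKO, adjusted p = 0.00344). In each of these 3, 1 genotype had no peak, as in 2747 of the 2805 regions called in the genome for this mark. With no filter on peaks, 0 regions of the genome were called for H3K27me3. The start of Id1 also had H3K27ac peaks in both Tcf4 cKO libraries alone, at 3.01 and 3.12, with an adjusted p of 0.254 (limma). Of the 74 H3K27ac regions of these genes, 2 had that pattern (2.53% of all regions) and 4 had the reverse (4.23% of all). Among the 4 was the promoter of Smurf1, with 2.95 and 4.05 in WT and 0 in both Tcf4 cKO libraries (adjusted p = 0.581, limma). For H3K4me1 and H3K27ac, 0 of 103 and 0 of 46 regions tested were called (limma). At an unadjusted p below 0.05, 3 were higher and 5 lower for H3K4me1, against 6591 and 3854 of all 65506 regions tested. For H3K27ac 2 were higher and 3 lower, against 1415 and 1792 of all 24899.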

How the data were processed

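Paired reads were trimmed with Trim Galore, aligned to mm10 with Bowtie 2 and freed of duplicates by the authors, who called peaks on each library alone with MACS2, narrow for ATAC-seq, H3K4me1, H3K27ac and Tcf4 and broad for H3K27me3. The lists deposited by the authors score each peak by its fold enrichment above local background, taken at the summit for narrow peaks and as an average over broad ones, and by a -log10 q-value. The deposited table of ATAC-seq consensus regions, made by the authors with DiffBind from reproducible peaks, gives mean log2 normalized reads per genotype, pooled over libraries. Its overall mean, fold change, p-value and FDR, and the deposited table of TOBIAS footprint scores per motif, were not used. Reads were not used here, so depth is known only as peak numbers, and a library without a peak may still hold signal.

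Each region took the highest fold enrichment of a peak overlapping it by at least 1 bp (0 without a peak). Regions were the deposited consensus regions for ATAC-seq and the merged peaks of the 4 libraries for each mark. Regions with a peak in at least 2 of 4 libraries were tested with limma 3.58.1 in R 4.3.3, with trend, on quantile-normalized log2(fold enrichment + 1), a pseudocount of 1, with two-sided tests and Benjamini-Hochberg adjustment over all regions tested and a threshold of 0.05. The fit was tested on data simulated from regions with a peak in all 4 libraries, and overlaps were checked against bedtools 2.31.1. Most calls fell at regions without a peak in 1 genotype, a case that the simulation did not cover. The study's own count test needs reads and could not be run. Genes and starts came from GENCODE M21 on GRCm38, and promoter sequences from RefSeq. Replicate numbers in the labels are shared between genotypes. The main model has no block for them. All 10 genes are named, and of 29 other pathway genes those with a region called by limma. The alternatives were another scaling, pseudocount, filter, q-value, flank, overlap or start, a replicate block and leaving out each library. The genes, lists and rules were chosen with earlier results of these data known. Python 3.11.15, numpy 2.4.6, pandas 2.3.3 and matplotlib 3.10.9 were used, and the single-cell RNA libraries were not analysed here.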

Additional observations from a re-analysis of the deposited data

How the results depend on the processing

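Counts below are of regions or genes of the 10 BMP genes. In ATAC-seq, 1 region was called. It became 2 without quantile normalisation (both at Bmpr1b), 6 with the stricter peak threshold (a -log10 q of 5 or more), 0 with the replicate block, and 0 to 1 with 1 library left out. The 1 called without Tcf4 cKO replicate 2 was the region upstream of Bmp2, and the 1 called with a peak required in all 4 libraries was the intron of Bmpr1a. The replicate block left 0 calls in H3K4me1 and H3K27ac and the same 3 in H3K27me3. Deviations of libraries with the same number correlated at 0.005 (ATAC), -0.006 (H3K4me1), 0.054 (H3K27ac) and -0.008 (H3K27me3). These values cannot show whether such libraries shared more than a number, which the labels do not say. Without quantile normalisation, H3K4me1 went from 0 to 9 (5 higher and 4 lower) and H3K27ac from 0 to 3 (1 higher and 2 lower). The 3 H3K27me3 calls became 0 with a peak required in all 4 libraries, 0 with no filter, 1 (another region, at Bmpr2) at the stricter threshold, and 0 with any 1 library left out.

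Over the whole genome, ATAC calls went from 181 higher and 287 lower to 560 and 1021 at the stricter threshold, 0 with the replicate block or without either WT library, 15 and 604 without Tcf4 cKO replicate 1 and 13 and 662 without replicate 2, H3K4me1 from 0 to 8087 higher and 2903 lower and H3K27ac from 0 to 1051 and 1768 without quantile normalisation, and H3K27me3 from 1587 and 1218 to 117 and 87 with a peak in all 4 libraries, 133 and 1 at the stricter threshold, and 0 with no filter or with any 1 library left out.

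Regions present in 1 genotype alone numbered 2 in ATAC-seq and 6 at the stricter threshold, 9 in H3K4me1 and 4, and 3 in H3K27me3 and 1. With 1 library left out they numbered 2 to 3 in ATAC-seq, 17 to 27 in H3K4me1, 5 to 12 in H3K27ac (from 3) and 7 to 15 in H3K27me3. In that setting 1 genotype rests on a single library. The shares of all regions under these alternatives are not given here, so these counts cannot be set against the genome. The authors' means differed by over 0.5 at 9 regions and by over 1 at 4. At the stricter threshold, promoters with H3K27me3 in WT fell from 4 to 2 and those with H3K4me1 from 3 to 1 (3 to 5 from 1 WT library), windows whose coverage did not overlap numbered 3 in H3K4me1 (from 6), 2 in H3K27ac and 2 in H3K27me3 (from 4 each), and Tcf4 regions 4 (from 9). Tcf4 regions were 16 with flanks of 50 kb and 12 to 22 from 1 Tcf4-tag library, the 22 being without replicate 2. E-box cores were at 3 sites within 25 bp (from 5). The cause of these shifts was not tested. Differences were followed only for regions with an unadjusted p below 0.05 (limma) or with peaks in 1 genotype alone. None of these turned its direction under the alternatives that gave a value, and the other regions were not followed. The choice of regions favoured that outcome, since a genotype without peaks stays at 0 under most alternatives. The steady direction is therefore no measure of how firm the differences are.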
